A study of Homo sapiens with 32 samples.

Results

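A set of 48 genes of DNA replication and nucleotide supply was followed through 32 expression arrays of 2 human lung cancer cell lines, H1299 and A549. The set was defined by gene symbol: a gene entered it if a probe set of the Affymetrix HG-U133 Plus 2.0 array carried one of 48 named symbols. It covers 14 origin licensing genes, 8 of helicase activation, 6 of the sliding clamp and its loader, 3 single-strand binding subunits, 8 subunits of polymerases and primase, 2 of Okazaki fragment joining, 4 of nucleotide supply and 3 of chromatin assembly and DNA methylation. All 48 had a probe set, out of 19775 genes with one, and all 48 passed the filter on dim probe sets that left 14695 genes for testing. Each was read over the filter's level, a log2 intensity of 5, on all 32 arrays, with log2 values between 7.01 and 12.26 in H1299 and between 6.81 and 12.79 in A549. The set's marker MCM6, a subunit of the replicative helicase, was among them.

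Before S phase the origin recognition complex, CDC6 and CDT1 load the ring of MCM2 to MCM7 on DNA, and geminin (GMNN) holds CDT1 back so that origins load only once per cycle. At the start of S phase the kinase CDC7 with DBF4, together with CDC45 and the GINS complex, turns the loaded ring into an active helicase, behind which primase, polymerases, the PCNA clamp and ligase copy both strands. Many of these genes, and the enzymes that make deoxynucleotides, are transcribed in waves under E2F factors, so that their RNA is high in cycling cells and low in resting ones.

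H1299 and A549 are both known to lack functional SMARCA4, and SMARCA2 and SMARCA4 are the ATPases that drive SWI/SNF complexes to move nucleosomes, of which a complex holds one or the other. The cells carried S2sh7, an shRNA aimed at SMARCA2, or shLuc, an shRNA to luciferase. Each also expressed a cDNA: in H1299 SMARCA2 in its wild-type form (WT), with a mutated bromodomain (BRD) or without ATPase activity (ATPdead), or GFP, and in A549 the same forms of SMARCA4, or GFP. H1299 thus gave 8 groups (S2sh7 and shLuc with each of the 4 cDNAs) of 3 arrays, labelled biological replicates, and A549 gave the corresponding 8 groups with 1 array each. All were stable lines made in the parental H1299 or A549 line. The labels do not say whether replicates are separate infections or cultures. The p-values then speak only of the spread among these arrays, which may be technical. H1299 is labelled as 1 batch and A549 as another, so line, batch and the gene supplied as cDNA cannot be told apart, and no test was made between the lines. The number of arrays limits the precision throughout.

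The knockdown and the quality of the arrays were checked first. A SMARCA2 probe set that no cDNA raised read 33.4, 33.7, 36.0 and 32.4 in the S2sh7 arrays of A549 with WT, BRD, ATPdead and GFP, against 298, 301, 319 and 292 in the matching shLuc arrays. In H1299 with GFP the same probe set averaged 28.8 ± 3.73 with S2sh7 and 70.6 ± 7.01 with shLuc (intensity, SD, n = 3 each). The supplied cDNAs did not read alike with both shRNAs. A SMARCA4 probe set that the cDNAs raised in A549 read 236 with WT, 240 with BRD, 151 with ATPdead and 31.3 with GFP in S2sh7 arrays, against 99.8, 121, 116 and 23.6 in shLuc arrays. SMARCA4 RNA was thus lower with ATPdead than with WT or BRD under S2sh7, and the part of that gap in the A549 comparisons was not tested. In H1299 a SMARCA2 probe set that the cDNAs raised averaged 76.7 ± 13.2 with S2sh7 and 121 ± 16.3 with shLuc in the WT line, and 25.7 ± 8.50 with S2sh7 and 42.6 ± 1.87 with shLuc in the GFP line (SD, n = 3 each). Replicate arrays of H1299 correlated at 0.9976 to 0.9988 over all genes tested, and the SD of a replication gene within a group of 3 had a median of 0.03 log2. The 3′ to 5′ difference of the ACTB control probe sets, a sign of RNA integrity, spanned 0.172 to 0.231 log2 with S2sh7 and 0.167 to 0.242 with shLuc in A549, and 0.197 to 0.303 with S2sh7 and 0.224 to 0.272 with shLuc in H1299. Of 6 epithelial markers 5 were over log2 5 on every A549 array, but EPCAM, CDH1 and KRT19 stayed under log2 4 on every H1299 array. Of 14 markers of leukocytes, endothelium and fibroblasts, PTPRC, LYZ, MS4A1, CDH5, KDR and LUM were under log2 5 on every array. On every A549 array 7 were over it: CD14, CD3E, PECAM1, VWF, COL1A1, COL1A2 and DCN, of which COL1A1 was the highest at 8.28 to 8.49. On every H1299 array PECAM1 and COL1A1 were over it, at 5.28 to 5.61 and 6.70 to 7.10.

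Promoter sequences are shown first because members of the set moved together in A549, and E2F sites are the element by which such genes are usually grouped. RefSeq promoters of GRCh38.p14, reaching from 250 bases before to 50 after the annotated start, were matched for 42 of the 48 genes; MCM4, MCM5, GINS4, RPA2, RPA3 and POLD3 were not matched. The E2F core TTCCCGC and its forms TTCGCGC and TTGCCGC, together with TTGGCGC, were searched on both strands, and these cores can overlap one another. At least 1 core lay in 30 of 42 replication promoters (71.4%), against 13.1% of 27305 promoters of the same length. A CCAAT box (CCAAT or ATTGG) was found in 54.8% of the 42, against 35.7% of all promoters. The cell cycle homology element TTTGAA, which many mitotic genes carry, was found in 4.76% of the 42, against 15.4% of all. A match is a run of letters and not a measured site of binding.

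Windows of 150 bases, from 120 before to 30 after the start, are given 5′ to 3′ in the direction of the gene with E2F cores in capitals. MCM3, LIG1, RFC3 and GINS3 are shown because they fell strongly in A549 with knockdown, MCM6 because it led the rises in H1299, and ORC6 because it rose in A549 and has no core in its window. The windows lie at chr6:52284713-52284862 (reverse strand), chr19:48170315-48170464 (reverse strand), chr13:33818029-33818178 (forward strand), chr16:58392351-58392500 (forward strand), chr2:135876414-135876563 (reverse strand) and chr16:46689539-46689688 (forward strand).
MCM3: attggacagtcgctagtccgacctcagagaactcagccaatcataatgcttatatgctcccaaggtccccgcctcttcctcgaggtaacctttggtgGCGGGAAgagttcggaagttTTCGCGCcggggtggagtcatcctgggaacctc
LIG1: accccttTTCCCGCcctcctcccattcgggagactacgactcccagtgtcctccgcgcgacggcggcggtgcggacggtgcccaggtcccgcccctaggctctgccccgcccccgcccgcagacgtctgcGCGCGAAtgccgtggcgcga
RFC3: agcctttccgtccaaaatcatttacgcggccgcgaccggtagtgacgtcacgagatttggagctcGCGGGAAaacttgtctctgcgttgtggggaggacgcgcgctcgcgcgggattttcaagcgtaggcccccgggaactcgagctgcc
GINS3: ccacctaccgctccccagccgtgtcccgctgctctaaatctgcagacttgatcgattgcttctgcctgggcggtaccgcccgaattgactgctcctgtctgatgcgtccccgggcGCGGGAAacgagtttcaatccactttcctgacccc
MCM6: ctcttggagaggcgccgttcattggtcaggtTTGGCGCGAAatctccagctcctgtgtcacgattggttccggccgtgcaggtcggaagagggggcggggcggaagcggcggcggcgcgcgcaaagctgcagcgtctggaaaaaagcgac
ORC6: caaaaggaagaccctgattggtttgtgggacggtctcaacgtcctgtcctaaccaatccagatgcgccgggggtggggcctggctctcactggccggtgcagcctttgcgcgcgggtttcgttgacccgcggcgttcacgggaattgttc
The cores of MCM3 begin at positions -23 and -3 from the start and that of GINS3 at -5. In MCM6 a pair of cores on opposite strands overlaps, at -89 and -86. The windows are examples only. GMNN fell in A549 with ATPdead or GFP without a core in its promoter, and RFC1, POLE and UHRF1 carry a core and were not called.

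The first question is whether SMARCA2 knockdown altered replication genes in A549, and whether a supplied SMARCA4 changed that. Most of the set fell in the lines that had no ATPase-competent SMARCA4 and did not in the lines that had one. In A549 with WT or BRD SMARCA4, S2sh7 lowered 1 of 48 genes and raised 6. In A549 with ATPdead SMARCA4 or GFP it lowered 32 of 48 and raised 3 (limma, adjusted p under 0.05 over all genes tested). Of all 14695 genes, 21.3% were called with WT or BRD (12.1% higher and 9.28% lower) and 49.8% with ATPdead or GFP (27.0% higher and 22.9% lower). The median knockdown effect over the 48 was 0.06 log2 with WT or BRD and -0.30 with ATPdead or GFP, where the medians of all genes were 0.01 and 0.004. Each of these fits rests on 2 S2sh7 and 2 shLuc arrays that carry different cDNAs and are not labelled replicates, so their spread also holds the difference between cDNAs. RNA was taken from whole cultures, so fewer cells in S phase and less RNA per cell cannot be told apart.

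The 4 pairs of arrays show the same split without a test. S2sh7 read lower than shLuc for 13 of 48 replication genes with WT, 20 with BRD, 42 with ATPdead and 38 with GFP. The median differences were 0.06, 0.05, -0.26 and -0.31 log2 in that order, whereas over all genes 45.6%, 48.8%, 49.5% and 48.7% read lower. For 41 of 48 genes (85.4%) both the ATPdead and the GFP pair lay below both the WT and the BRD pair, an order held by 30.6% of all genes. Both ATPdead and GFP pairs read lower for 38 of the 48, against 40.7% of all genes.

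**Figure D1:**
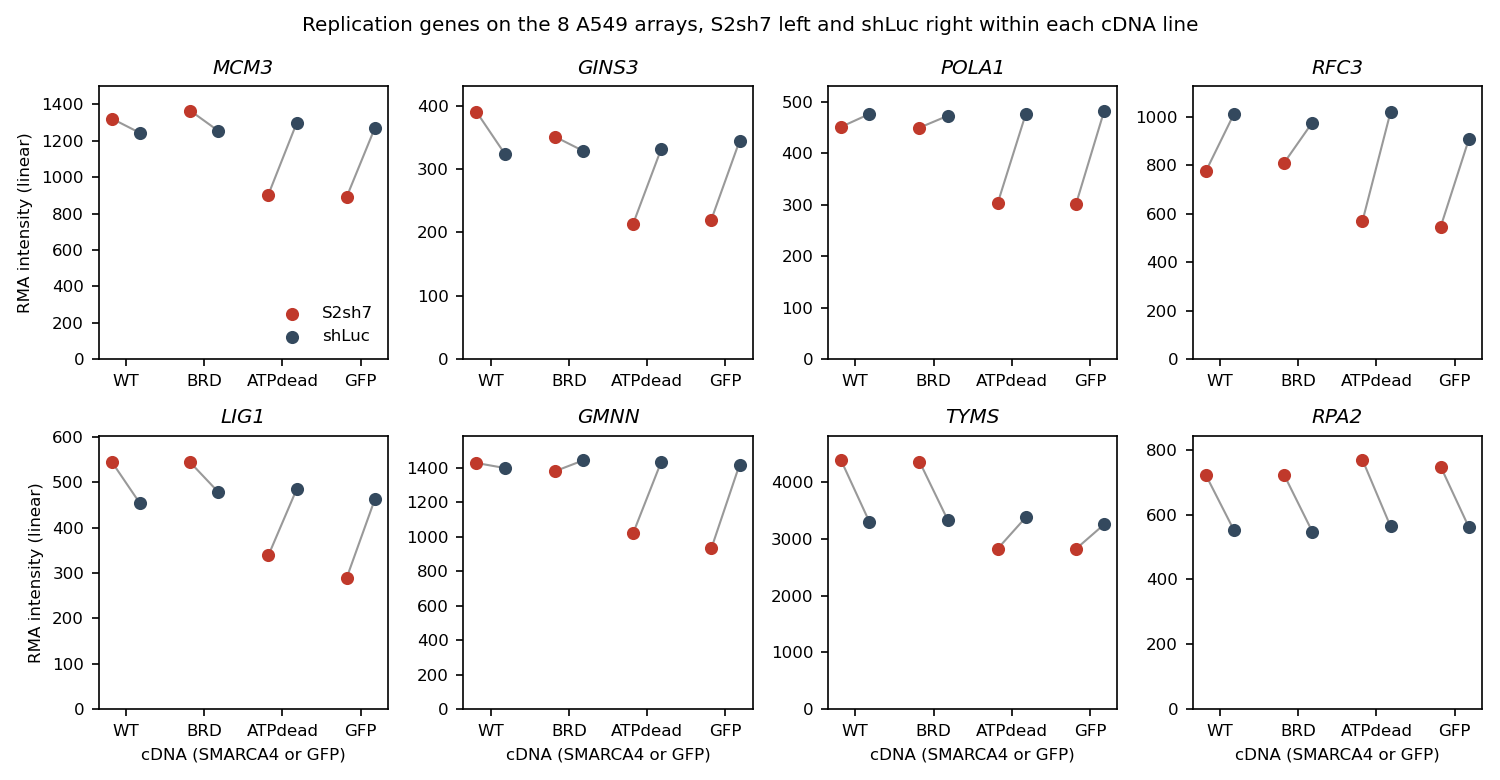
RMA intensity (linear, vertical axis) of 8 replication genes on each of the 8 A549 arrays, by cDNA, with a grey line joining the S2sh7 array (red, left) and the shLuc array (dark, right) of a cDNA. MCM3, GINS3 and LIG1 are lower with S2sh7 in the ATPdead and GFP lines and higher with WT and BRD; POLA1 and GMNN are lowest on the S2sh7 arrays with ATPdead and GFP; TYMS moves both ways, RFC3 falls in all 4 pairs and RPA2 is higher in all 4.

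Among the origin licensing genes 9 of 14 fell with knockdown in the ATPdead and GFP lines, where 22.9% of all genes did. The 9 included all 6 subunits of the MCM2 to MCM7 ring. MCM3 read 1322 with WT, 1366 with BRD, 904 with ATPdead and 892 with GFP in S2sh7 arrays, against 1243, 1254, 1296 and 1270 in shLuc arrays. Its S2sh7 values with ATPdead and GFP lay below all 6 other arrays. The knockdown effect of MCM3 was 0.11 log2 (adjusted p = 0.209) with WT or BRD and -0.52 (SE 0.054, adjusted p = 1.24e-04) with ATPdead or GFP. MCM4 was at -0.10 (adjusted p = 0.381) and -0.62 (adjusted p = 2.73e-04) in the same order, and MCM2 at -0.06 (adjusted p = 0.518) and -0.44 (adjusted p = 4.10e-04). MCM7, MCM5 and MCM6 were lower by smaller amounts with ATPdead or GFP, at -0.34, -0.31 and -0.32.

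MCM6 read 3019, 3113, 2631 and 2282 in the S2sh7 arrays with WT, BRD, ATPdead and GFP, against 2942, 2998, 3176 and 2934 in shLuc arrays. Its ATPdead and GFP S2sh7 arrays were again the lowest of the 8. GMNN, which encodes the CDT1 inhibitor geminin, read 1427, 1379, 1019 and 932 with S2sh7, against 1398, 1442, 1434 and 1417 with shLuc. Its effect was -0.02 (adjusted p = 0.879) with WT or BRD and -0.55 (SE 0.064, adjusted p = 2.14e-04) with ATPdead or GFP, so the inhibitor of licensing fell beside the genes that carry it out. CDT1 fell by 0.35 and CDC6 by 0.20 with ATPdead or GFP.

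Of the origin recognition complex, which marks origins, none of the 5 subunits in the set was called lower with ATPdead or GFP by its brightest probe set. ORC2, ORC3 and ORC5 were not called in any A549 comparison, with effects of -0.12, -0.15 and -0.07 log2 with ATPdead or GFP. ORC6 rose there (0.25, adjusted p = 0.0143), while ORC1 was not called there (0.08, adjusted p = 0.473) and rose with WT or BRD (0.47, SE 0.080, adjusted p = 0.00595). ORC1 read 221, 195, 167 and 165 with S2sh7 and WT, BRD, ATPdead and GFP, against 144, 155, 164 and 151 with shLuc. A dimmer probe set of ORC2 gave another answer from the kept one, with a fall of 0.87 with ATPdead or GFP (adjusted p = 1.43e-04 among all probe sets), so the reading of ORC2 depends on the probe set.

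Of the 8 helicase activation genes 4 fell with ATPdead or GFP, where 22.9% of all genes did: CDC45 and the GINS subunits GINS1, GINS2 and GINS3. GINS3 read 390, 351, 213 and 220 in S2sh7 arrays with WT, BRD, ATPdead and GFP, against 324, 329, 332 and 344 in shLuc arrays. It was higher than its shLuc partner with WT and BRD and clearly lower with ATPdead and GFP, with effects of 0.18 (adjusted p = 0.0957) and -0.64 (SE 0.067, adjusted p = 1.24e-04). The fourth GINS subunit, GINS4, rose in both kinds of line, by 0.31 with WT or BRD (adjusted p = 0.00738) and 0.18 with ATPdead or GFP (adjusted p = 0.0301), although the complex holds one copy of each subunit. MCM10 and DBF4, the activating partner of CDC7, rose with WT or BRD (0.31 and 0.46, adjusted p = 0.0350 and 0.00488) and were not called with ATPdead or GFP (0.06 and 0.13). CDC7 itself read 225, 257, 187 and 133 with S2sh7, against 203, 199, 219 and 199 with shLuc, and was not called in either kind of line (0.26 and -0.41).

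The clamp loader subunit RFC3 had the largest fall of the 48 with ATPdead or GFP and was the member that also fell with WT or BRD. RFC3 read 776, 811, 569 and 547 with S2sh7 and WT, BRD, ATPdead and GFP, against 1013, 977, 1021 and 908 with shLuc. Every S2sh7 array lay below every shLuc array. The effect was -0.33 (SE 0.072, adjusted p = 0.0166) with WT or BRD and -0.79 (SE 0.072, adjusted p = 6.07e-05) with ATPdead or GFP. PCNA, the clamp that holds polymerases on DNA, was at 0.03 (adjusted p = 0.827) with WT or BRD and fell by 0.44 with ATPdead or GFP (adjusted p = 0.00121). RFC4 and RFC2 fell by 0.31 and 0.17 there, while RFC1, the large subunit, was not called (-0.13).

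RFC5 was at -0.04 (adjusted p = 0.620) with WT or BRD and at -0.56 (SE 0.053, adjusted p = 7.53e-05) with ATPdead or GFP, but its probe sets disagreed. Of its 2 other probe sets, one gave -0.59 with ATPdead or GFP and one 0.61, each called (adjusted p = 1.39e-04 and 5.57e-04 among all probe sets). The sources used here do not say which part of the transcript each reads, and the direction of RFC5 is uncertain. Elsewhere the probe sets of a gene mostly ran together: of 30 other probe sets beside a member called with ATPdead or GFP, 27 had the same sign and 18 the same call, and the RFC5 probe set at 0.61 was the 1 called the other way. RFC2 and POLA2 were close to the threshold there and were not called when all probe sets were adjusted together (adjusted p = 0.0681 and 0.0564).

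RPA, the heterotrimer that coats single-stranded DNA, was split by subunit. RPA3 read 1417, 1428, 1003 and 1005 with S2sh7 and WT, BRD, ATPdead and GFP, against 1401, 1445, 1429 and 1373 with shLuc, an effect of -0.48 (SE 0.055, adjusted p = 2.02e-04) in the ATPdead and GFP lines. RPA2 read 722, 723, 770 and 748 with S2sh7, against 552, 548, 564 and 561 with shLuc. RPA2 thus rose in both kinds of line, by 0.39 with WT or BRD and 0.43 with ATPdead or GFP (adjusted p = 0.00239 and 2.86e-04), and the difference between them was -0.04 (95% interval -0.21 to 0.14). RPA1 fell by 0.19 with ATPdead or GFP (adjusted p = 0.0191).

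Subunits of polymerases and primase fell in 5 of 8 cases with ATPdead or GFP, where 22.9% of all genes did. POLA1, the catalytic subunit of DNA polymerase alpha, had the smallest adjusted p of the set. It read 452, 450, 304 and 302 with S2sh7 and WT, BRD, ATPdead and GFP, against 477, 473, 478 and 483 with shLuc. The effect was -0.07 (adjusted p = 0.353) with WT or BRD and -0.67 (SE 0.052, adjusted p = 2.67e-05) with ATPdead or GFP. POLD3, an accessory subunit of polymerase delta, and PRIM1, the catalytic primase subunit, fell by 0.55 and 0.42 there, and POLD1 and POLA2 fell by 0.26 and 0.22. The polymerase epsilon subunits POLE and POLE2 (0.12 and -0.18) and the primase subunit PRIM2 (0.01) were not called.

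Both genes of Okazaki fragment joining fell with ATPdead or GFP, where 22.9% of all genes did. LIG1, the ligase that seals nicks, read 545, 544, 339 and 289 with S2sh7 and WT, BRD, ATPdead and GFP, against 453, 478, 484 and 462 with shLuc. The S2sh7 arrays were the highest of the 8 with WT and BRD and the lowest with ATPdead and GFP, with effects of 0.23 (adjusted p = 0.0899) and -0.60 (SE 0.082, adjusted p = 5.25e-04). FEN1, the flap nuclease, was at 0.10 (adjusted p = 0.249) with WT or BRD and -0.26 (adjusted p = 0.00653) with ATPdead or GFP.

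In nucleotide supply TYMS, which makes thymidylate, was called in opposite directions in the 2 kinds of line. TYMS read 4387, 4368, 2831 and 2827 with S2sh7 and WT, BRD, ATPdead and GFP, against 3306, 3342, 3386 and 3260 with shLuc. It rose by 0.40 with WT or BRD (SE 0.054, adjusted p = 0.00248) and fell by 0.23 with ATPdead or GFP (adjusted p = 0.00785). The ribonucleotide reductase subunit RRM1 and the salvage enzyme TK1 fell by 0.33 and 0.35 with ATPdead or GFP, but RRM2, the other reductase subunit, was not called in any A549 comparison (-0.01, 95% interval -0.15 to 0.14). Of the chromatin genes, CHAF1A and CHAF1B, subunits of the histone chaperone CAF-1, fell by 0.30 and 0.29 with ATPdead or GFP, and UHRF1, which guides maintenance DNA methylation, did not pass the test (-0.01).

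**Figure D2:**
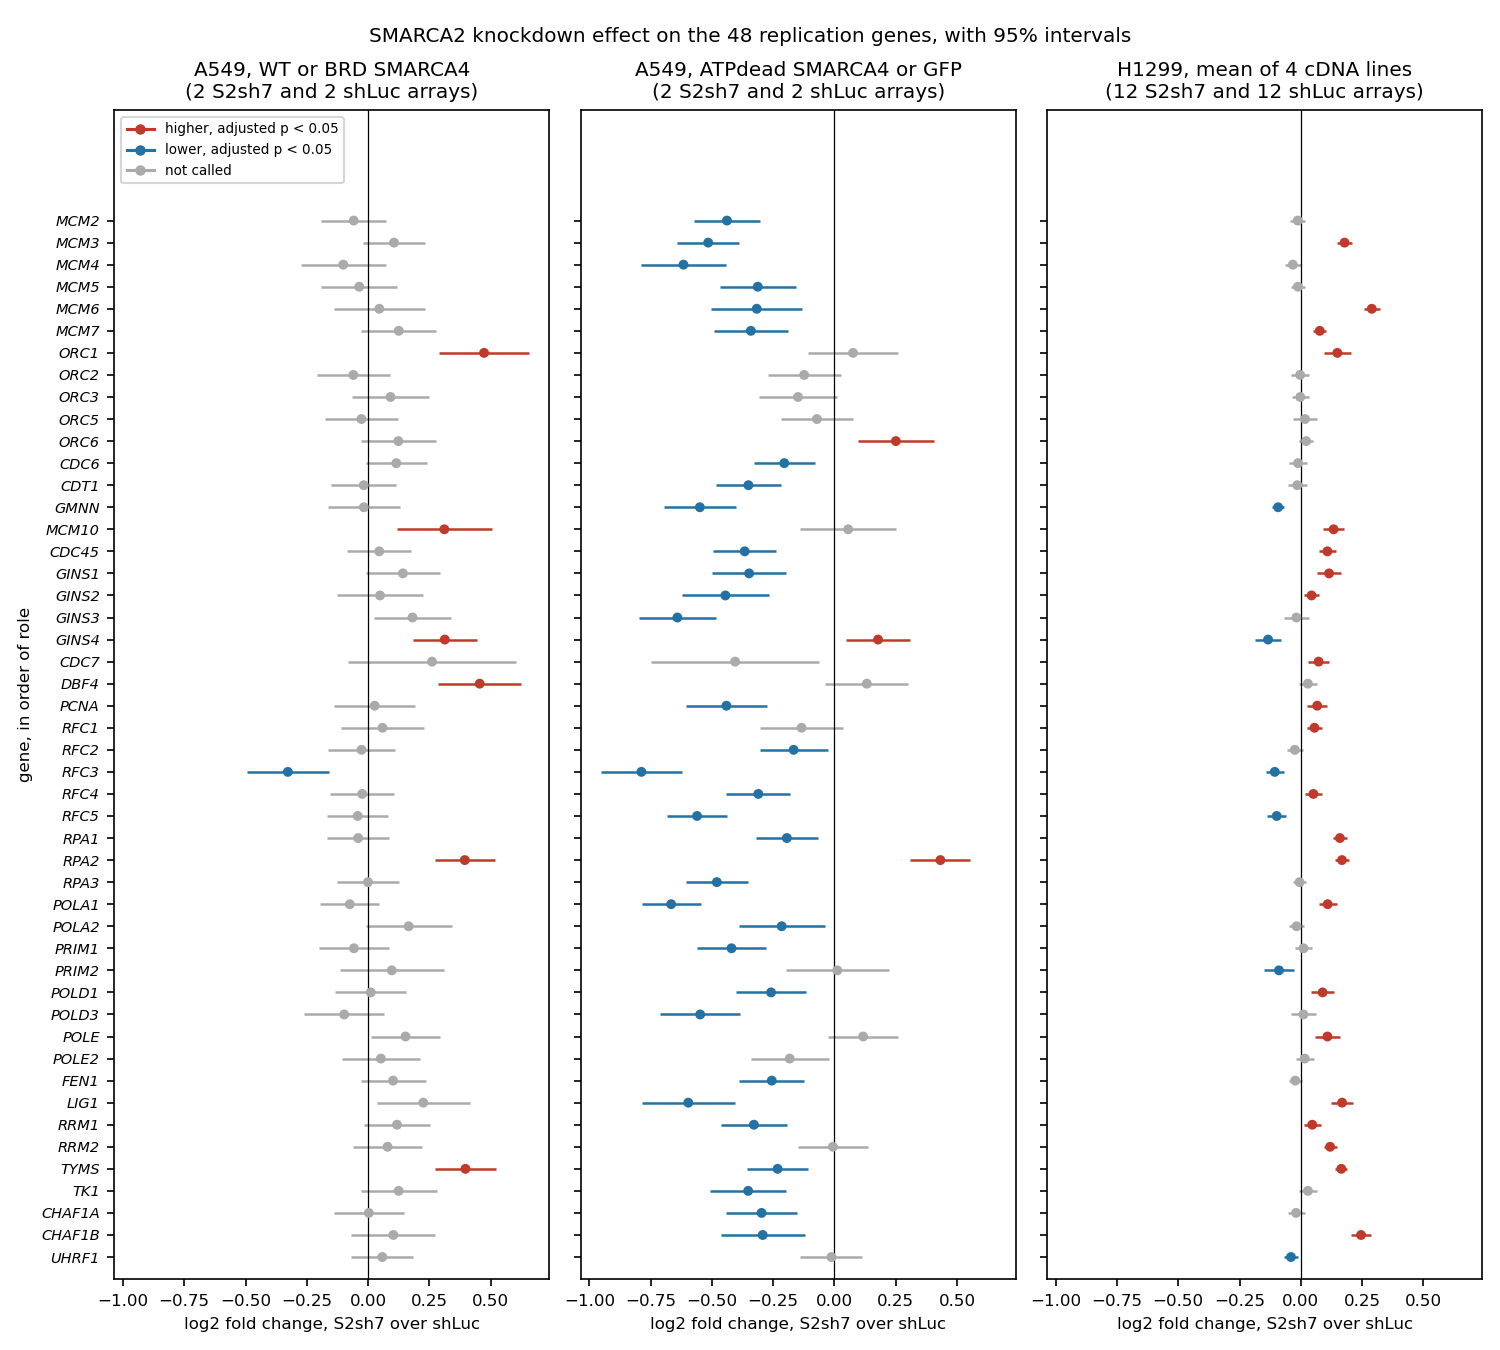
Knockdown effect (log2 fold change of S2sh7 over shLuc, horizontal axis) of the 48 genes, with 95% intervals, in A549 with WT or BRD SMARCA4, in A549 with ATPdead SMARCA4 or GFP, and in H1299 as the mean of 4 cDNA lines; red and blue mark genes called higher and lower in limma. The middle panel holds 32 blue genes and the left panel 1, while in H1299 effects stay between -0.13 and 0.29.

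The difference between the 2 kinds of A549 line was then tested as an interaction. The knockdown effect with WT or BRD exceeded that with ATPdead or GFP for 28 of 48 genes and was below it for none, where 23.9% of all genes were called, 12.0% higher and 11.9% lower. The median difference was 0.36 log2 over the 48 and -0.005 over all genes. GINS3 and LIG1 differed by 0.82 each (SE 0.095 and 0.116, adjusted p = 8.41e-04 and 0.00207), TYMS by 0.63 (adjusted p = 0.00104), MCM3 by 0.62 (adjusted p = 0.00109) and POLA1 by 0.59 (adjusted p = 0.00116). Of the 32 genes that fell with ATPdead or GFP, 27 were among the 28, the other being ORC1, and MCM5, MCM6, POLD1, RFC2 and RPA1 were not called in the difference. MCM6 differed by 0.36 with an interval of 0.10 to 0.63 (adjusted p = 0.0532). Of 23 other probe sets beside a member called in the difference, 21 had the same sign, 14 the same call and 1 the opposite call. The count of 28 dropped to 16 without the shLuc BRD array and to 18 without the shLuc WT array, and was 21 to 27 without any other single array. The count of 7 called with WT or BRD became 3 without the shLuc WT array and 4 without the shLuc BRD array.

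The arrays with shLuc alone ask whether SMARCA4 altered replication genes while SMARCA2 was present. With shLuc, WT or BRD against ATPdead or GFP gave 0 calls among the 48 and 0 among all 14695 genes in limma (0% background), and 0 of the 48 had an unadjusted p under 0.05. The 48 differences lay between -0.13 and 0.09, and their 95% intervals stayed within -0.40 and 0.29. With S2sh7 the same contrast called 34 of 48 higher and 0 lower, where 38.7% of all genes were called, 17.8% higher and 20.9% lower. LIG1 (0.80), GINS3 (0.77), TYMS (0.63), MCM3 (0.58) and POLA1 (0.58) led. These contrasts share arrays with the knockdown effects above and give the same data from another side. They differ in more than SMARCA2. The SMARCA4 probe set that the cDNAs raised read 99.8 and 121 with WT and BRD in shLuc arrays, against 236 and 240 in S2sh7 arrays. The part of that gap in the 0 calls with shLuc was not tested.

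Averaged over all 4 A549 pairs in an additive fit, 3 of the 48 were called, where 21.1% of all genes were (12.0% higher, 9.06% lower): RPA2 (0.41, adjusted p = 0.0147) and GINS4 (0.25, adjusted p = 0.0427) were higher and RFC3 was lower (-0.56, adjusted p = 0.0324). That fit counts the difference between the pairs as error. With the difference between kinds of line removed, in an alternative chosen after seeing the data, 28 were called, 7 higher and 21 lower. The share of all genes called in that alternative is not given here, so its count cannot be read against a background. In the additive fit the count was 0 without the WT, the ATPdead or the GFP pair.

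Other cell cycle genes moved in the same arrays. Of 25 mitosis genes, 20 rose and 0 fell with WT or BRD, and 1 rose and 18 fell with ATPdead or GFP; the interaction was called for 23, all higher. Their median effect was 0.49 with WT or BRD and -0.38 with ATPdead or GFP. Of all genes, 12.1% rose and 9.28% fell with WT or BRD, and 27.0% rose and 22.9% fell with ATPdead or GFP. In the interaction 12.0% of all genes were called higher. TOP2A, the S and G2 phase topoisomerase, rose by 0.40 with WT or BRD and fell by 0.83 with ATPdead or GFP, and the cyclin-dependent kinase CDK1 fell by 0.76 with ATPdead or GFP. Epithelial markers moved as well: the mean log2 of the 6 ran from 9.50 to 10.56 in S2sh7 arrays and from 10.70 to 10.89 in shLuc arrays of A549, and CDH1, KRT19 and EPCAM fell by 1.77, 2.28 and 1.36 with ATPdead or GFP. The leukocyte marker CD14 fell by 1.54, whereas CD3E was not called (-0.04, adjusted p = 0.658) and PTPRC, LYZ and MS4A1 were under log2 5 on every array. Over the 5 leukocyte markers the mean log2 ran from 4.50 to 4.77 in S2sh7 arrays and from 4.80 to 4.95 in shLuc arrays. The part of these changes in the replication result was not tested.

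**Figure D3:**
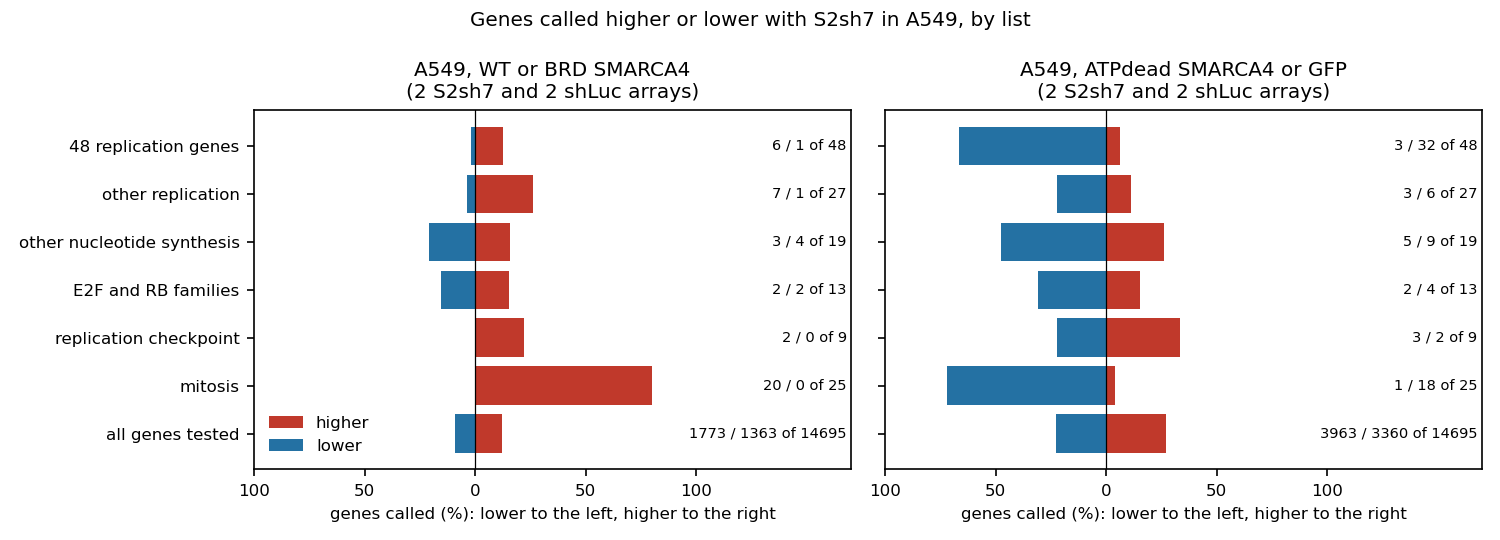
Share of genes called higher (red, right of 0) and lower (blue, left of 0) with S2sh7 in A549, in percent, for the 48 members, 5 other gene lists and all genes tested; counts at the right are higher / lower of those tested. With ATPdead SMARCA4 or GFP the 48 (32 lower) and the mitosis genes (18 of 25 lower) stand left, whereas with WT or BRD 20 of 25 mitosis genes but 6 of 48 replication genes were higher.

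Genes of replication outside the set and related lists were called in both directions, at shares to be read against those of all genes (21.3% with WT or BRD, 49.8% with ATPdead or GFP). Of 27 other replication genes, 7 rose and 1 fell with WT or BRD, and 3 rose and 6 fell with ATPdead or GFP (medians 0.14 and -0.08 log2), or 29.6% and 33.3% called. DSCC1, part of an alternative clamp loader, rose in both (0.51 and 0.40, adjusted p = 9.66e-04 and 5.21e-04), and ASF1B, a histone chaperone, fell with ATPdead or GFP (-0.57, adjusted p = 2.03e-04). Of 19 other nucleotide synthesis genes, 3 rose and 4 fell with WT or BRD and 5 rose and 9 fell with ATPdead or GFP. The latter falls included the purine enzymes PAICS (-0.70) and IMPDH2 (-0.56) and the deoxynucleotide hydrolase SAMHD1 (-0.74). MTHFD2 and CTPS1 were among the rises there (0.52 each). IMPDH2 and SAMHD1 also fell with WT or BRD (-0.34 and -0.43), and neither was called in the difference between the kinds of line. Of 9 replication checkpoint genes, 2 rose and 0 fell with WT or BRD and 3 rose and 2 fell with ATPdead or GFP, where HUS1 and RAD17, which sense damaged forks, rose (0.65 and 0.50).

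The E2F and RB families, which govern much of the set, held genes called in both directions. Of 13 genes, 2 rose and 2 fell with WT or BRD, and 2 rose and 4 fell with ATPdead or GFP (medians -0.02 and 0.09 log2). Of all genes 21.3% and 49.8% were called in the same order, so the count with ATPdead or GFP did not exceed that share. The repressors E2F7 and E2F8 were at -0.96 and -0.59 with ATPdead or GFP, and the pocket protein RBL1 at -0.68 (adjusted p = 2.61e-05, 0.00182 and 0.00175). E2F5 rose by 0.59 (adjusted p = 6.82e-05). Among the promoters, an E2F core was found for 23 of 28 matched genes that fell with ATPdead or GFP (82.1%) and for 7 of 14 that did not (50%), a description only. GMNN, CDC45, POLD1, FEN1 and TK1 fell without a core in their promoters, whereas ORC3, RFC1, POLE and UHRF1 had a core and were not called in A549.

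In H1299 the question was whether the same knockdown moved these genes and whether supplied SMARCA2 restored them. Changes were small, with more rises than falls called and MCM6 in front. Over the mean of the 4 cDNA lines 22 of 48 rose and 6 fell in limma, but this fit of 12 arrays against 12 called 50.0% of all genes, 27.1% higher and 22.9% lower. The median effect was 0.03 log2 over the 48 and 0.02 over all genes, and no member moved by more than 0.29. With WT 13 rose and 3 fell, where 26.5% of all genes were called (14.9% higher, 11.6% lower). With BRD 13 rose and 2 fell (23.7%; 11.1% higher, 12.7% lower). With ATPdead 14 rose and 3 fell (28.4%; 16.5% higher, 11.9% lower), and with GFP 8 rose and 4 fell (29.7%; 13.6% higher, 16.1% lower). Among the members the called rises thus outnumbered the called falls with each cDNA. Without a test, 17, 17, 10 and 22 of the 48 read lower with WT, BRD, ATPdead and GFP, against 44.6%, 44.9%, 44.3% and 46.0% of all genes. With GFP the median was 0.01 log2 over the 48 and over all genes, so the set as a whole was not shifted upward there beyond all genes. With each array centred on its median the GFP knockdown gave 20 rises and 2 falls, and the median of the 48 became 0.06 log2. Centring shifts all genes of an array by the same amount. The share of all genes called under it is not given here, so that split is not read as a rise of the set. Epithelial markers moved here too: KRT7, KRT8 and KRT18 fell in the mean (-1.07, -0.57 and -0.42 log2). KRT19 was also called lower (-0.13), but KRT19, EPCAM and CDH1 were under log2 5 on every H1299 array and cannot be read there. The mean log2 of all 6 ran from 6.07 to 6.30 in S2sh7 arrays and from 6.51 to 6.68 in shLuc arrays. The part of these markers in the result was not tested.

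MCM6 read 2831, 2951 and 2862 with S2sh7 and WT, against 2460, 2378 and 2299 with shLuc and WT. With BRD it read 2909, 3055 and 2915 with S2sh7, against 2371, 2458 and 2383 with shLuc; with ATPdead 2895, 2885 and 2900, against 2345, 2332 and 2432; and with GFP 2845, 2806 and 3007, against 2361, 2363 and 2341. All 12 S2sh7 arrays lay above all 12 shLuc arrays. The effect of the mean was 0.29 log2 (SE 0.016, adjusted p = 9.46e-12), and it was 0.28 to 0.30 with each cDNA.

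Of the 48 genes, 6 were called higher with every cDNA, where 6.06% of all genes were: MCM6, the CAF-1 subunit CHAF1B (0.25), MCM3 (0.18), RPA2 (0.17), TYMS (0.17) and RPA1 (0.16). None was called lower with every cDNA (6.81% of all genes). CHAF1B read 167, 170 and 182 with S2sh7 and WT, against 143, 148 and 147 with shLuc and WT, and 165, 175 and 183 with S2sh7 and GFP, against 153, 144 and 151 with shLuc and GFP. TYMS read 4807, 4857 and 4642 with S2sh7 and GFP, against 4279, 4247 and 4269 with shLuc and GFP. For both genes the S2sh7 and shLuc arrays did not overlap in the lines given. LIG1 (0.17), ORC1 (0.15), MCM10 (0.13) and RRM2 (0.12) rose in the mean as well.

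The falls in H1299 were in GINS4 (-0.13), RFC3 (-0.11), RFC5 (-0.10), GMNN (-0.09), PRIM2 (-0.09) and UHRF1 (-0.04). GMNN read 1624, 1658 and 1580 with S2sh7 and GFP, against 1750, 1821 and 1784 with shLuc and GFP, without overlap. RFC3 read 763, 778 and 780 with S2sh7 and GFP, against 871, 868 and 845 with shLuc and GFP, also without overlap. Both are genes that fell in A549 with ATPdead or GFP.

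**Figure D4:**
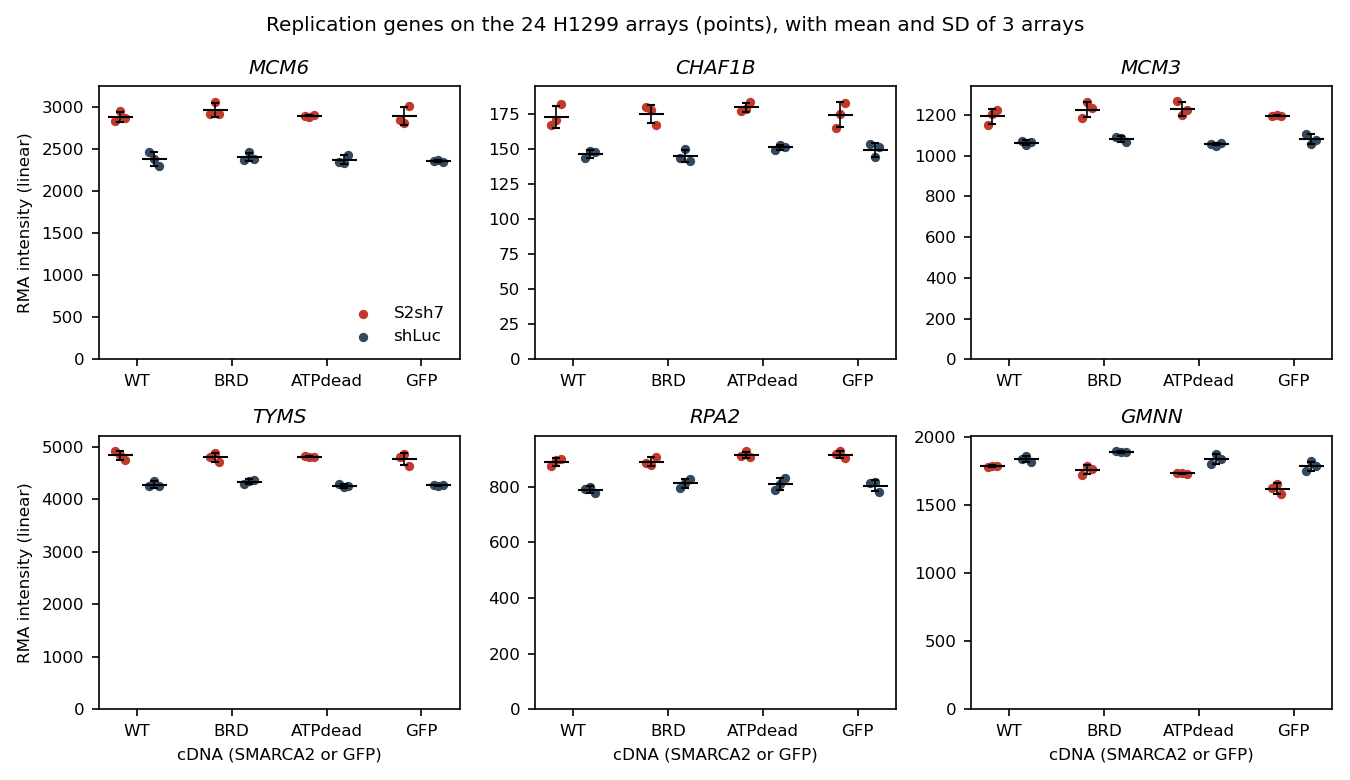
RMA intensity (linear, vertical axis) of 6 replication genes on the 24 H1299 arrays by cDNA, S2sh7 (red) left of shLuc (dark); black marks are the mean and SD of 3 arrays. MCM6 lies at or above 2806 in every S2sh7 array and at or below 2460 in every shLuc array, and the knockdown effect is 0.28 to 0.30 log2 with each of the 4 cDNAs; GMNN averages lower with S2sh7.

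Few replication genes of H1299 were called for a difference between supplied cDNAs. The knockdown effect with WT differed from that with GFP for 2 of 48 genes, where 2.28% of all genes were called: RPA3 (0.16, SE 0.034, adjusted p = 0.0156) and RRM2 (-0.16, SE 0.035, adjusted p = 0.0214). RPA3 read 1703, 1742 and 1743 with S2sh7 and WT, against 1632, 1617 and 1642 with shLuc and WT, and 1572, 1600 and 1568 with S2sh7 and GFP, against 1668, 1652 and 1678 with shLuc and GFP. It was therefore higher with knockdown in WT cells and lower in GFP cells. The count was 1, higher, when any of 3 arrays was left out: replicate 1 of shLuc with GFP, replicate 2 of shLuc with WT, and replicate 2 of S2sh7 with WT. The BRD and ATPdead differences from GFP gave 0 of 48 in limma (0.558% and 0.0612% of all genes), with 3 each at an unadjusted p under 0.05 and intervals within -0.26 and 0.27.

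Under S2sh7, WT exceeded GFP for GMNN (0.14, adjusted p = 0.00142) and RPA3 (0.13, adjusted p = 0.00225), where 5.06% of all genes were called, and BRD exceeded GFP for GMNN (0.12, adjusted p = 0.00650; 5.38%). GMNN read 1780, 1791 and 1788 with S2sh7 and WT and 1723, 1789 and 1764 with S2sh7 and BRD, against 1624, 1658 and 1580 with S2sh7 and GFP. With S2sh7 and ATPdead it read 1733, 1737 and 1728, also above every GFP array though not called. With shLuc it read 1840, 1860 and 1818 with WT, 1898, 1889 and 1888 with BRD, 1799, 1872 and 1839 with ATPdead and 1750, 1821 and 1784 with GFP. GFP thus averaged lowest without knockdown too, though no such gap was called. ATPdead against GFP under S2sh7 gave 0 of 48 (0.803% of all genes; 5 at an unadjusted p under 0.05). ATPdead against WT gave 0 (3.02%; 4 unadjusted), with differences between -0.09 and 0.08 and intervals within -0.20 and 0.16, and BRD against WT gave 0 (0.0612%; 9 unadjusted). With shLuc, WT, BRD and ATPdead against GFP gave 0 each (2.74%, 1.37% and 0.122% of all genes; 4, 3 and 8 unadjusted). Fitting only the arrays compared gave 0 calls for WT and BRD against GFP under S2sh7 and for the WT difference, so the GMNN, RPA3 and RRM2 calls rest on the spread shared by all 8 groups. Array centring also gave 0 for BRD against GFP under S2sh7, and under eBayes with trend and robust settings several of the counts of 0 became 1 or 2.

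Effects in the 2 lines were set side by side and not tested against each other. Of the 32 genes lower in A549 with ATPdead or GFP, 15 were higher in the H1299 mean (46.9%), where of all 3360 genes lower in A549 23.3% were. They made up 68.2% of the 22 members higher in H1299, where the share over all genes was 19.6%. Among the members the overlap was near what the set as a whole gave, with 45.8% of the 48 higher in the H1299 mean and 66.7% lower in A549. Members that fell in A549 thus rose in H1299 about as often as the 48 did. The 15 were CDC45, CHAF1B, GINS1, GINS2, LIG1, MCM3, MCM6, MCM7, PCNA, POLA1, POLD1, RFC4, RPA1, RRM1 and TYMS. GMNN, RFC3 and RFC5 were lower in both, RFC5 by its brightest probe set only, as its probe sets disagreed in A549. The other 14 were not called in the H1299 mean. RPA2 was higher in both, and GINS4 was lower in H1299 and higher in A549. The largest H1299 fold, that of MCM6, was 0.29, against falls of up to 0.79 in A549.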

How the data were processed

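Total RNA of 24 H1299 and 8 A549 samples was hybridised to Affymetrix HG-U133 Plus 2.0 arrays after 3′ in vitro transcription labelling. The values deposited by the authors are RMA intensity per probe set on a linear scale; RMA and limma were used, per the submitters' processing notes, and no version is given in these sources. The design had assumed log2 values, so log2 was taken here with no pseudocount. RMA already holds background correction, quantile normalization and summary of probes, and compresses small changes of dim probe sets. Because array medians differed between the lines (H1299 26.4 to 27.3, A549 40.1 to 41.2), no fit joined them.

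The array holds 54675 probe sets. A single gene symbol was given for 41097, several for 1801 and none for 11777, and 54 single symbols did not match the RefSeq gene list. Each of 19775 genes was represented by its brightest probe set by mean log2 over 32 arrays, and those over log2 5 on 3 arrays or more, 14695 genes (74.3%), entered the tests. In limma 3.58.1 (R 4.3.3, data.table version 1.17.8), H1299 had 1 mean per group (16 residual degrees of freedom). A549 had additive cDNA and shRNA terms (3), or 1 mean per cell of WT or BRD against ATPdead or GFP by shRNA (4). eBayes was at its defaults and calls used a Benjamini-Hochberg adjusted p under 0.05 over all genes tested. Intervals are 95%.

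The members, gene lists, the grouping of WT with BRD, tests and alternatives were chosen with earlier results of these data known. Named genes were MCM6, members called in a comparison (up to 10 by adjusted p) and followed in others, members called in every H1299 knockdown or in both lines, and up to 4 called genes of other lists; CDH1, KRT19, EPCAM, CD14, CDC7, and further members are named to account for all 48. ATRIP had no probe set with a single symbol and was not analysed here. The fits were tested on simulated data. The alternatives averaged a gene's probe sets, or used no filter, log2 over 6, repeated quantile normalization, array centring, eBayes with trend and robust, only the arrays compared, a replicate block and leaving out each array or pair. Figures used Python 3.11.15, pandas 2.3.3 and matplotlib 3.10.9.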

Additional observations from a re-analysis of the deposited data

Results flagged for a closer look

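In A549 the knockdown effect with WT or BRD SMARCA4 minus that with ATPdead SMARCA4 or GFP was tested as an interaction in limma and passed for 28 replication genes, each with the higher value in the WT or BRD lines. By role, the licensing genes were MCM3 (0.62 log2), GMNN (0.53), MCM4 (0.51), MCM7 (0.47), ORC1 (0.40), MCM2 (0.38), CDT1 (0.33) and CDC6 (0.32). The helicase activation genes were GINS3 (0.82), GINS1 (0.49), GINS2 (0.49) and CDC45 (0.41). Those of the clamp, its loader and single-strand binding were RFC5 (0.52), RPA3 (0.48), PCNA (0.47), RFC3 (0.46) and RFC4 (0.29). The RFC5 value is that of its brightest probe set, and its direction is uncertain. Polymerase and primase genes were POLA1 (0.59), POLD3 (0.45), POLA2 (0.38) and PRIM1 (0.36), and those of fragment joining were LIG1 (0.82) and FEN1 (0.36). Nucleotide supply gave TYMS (0.63), TK1 (0.48) and RRM1 (0.45), and chromatin assembly CHAF1B (0.40) and CHAF1A (0.30).

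In H1299 the knockdown effect differed between WT SMARCA2 and GFP for RPA3 (0.16) and RRM2 (-0.16). RPA1 read lower with S2sh7 in all 4 A549 pairs (mean -0.12) and higher with every cDNA in H1299 (mean 0.16), a difference between lines that was not tested. Groups of 1 or 3 arrays were too small for a test of single outlying arrays.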

How the results depend on the processing

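Of 2348 gene values under alternatives, for 95 gene results, 2299 kept their direction and side of the threshold, 49 lost the call and 0 reversed. The 95 were called members only, limited in each comparison to those with the smallest adjusted p. Runs without an array of the same line were counted too, including arrays outside the comparison. This tally therefore describes the strongest calls, and how far the number of members called moved is given below. In A549, members called with ATPdead or GFP numbered 32 to 37 and in the difference 24 to 33 over the alternatives that kept every array. With the mean of all probe sets, members called became 1 for the H1299 difference of WT from GFP, 1 for WT against GFP with shLuc, 5 for the 4 A549 pairs and 11 for A549 with WT or BRD. With log2 over 6, BRD against GFP under S2sh7 gave 2, ATPdead against GFP under S2sh7 gave 1 and WT against GFP with shLuc gave 2. Quantile normalization gave 1 for BRD against GFP with shLuc. Centring shifts all genes of an array by the same amount, and the shares of all genes called under it are not given here. Centring gave 22 for the H1299 GFP knockdown (20 higher and 2 lower, against 8 and 4), 1 for the WT difference (0 higher, 1 lower), 0 for BRD against GFP under S2sh7, 1 for WT against GFP with shLuc and, for WT against GFP under S2sh7, 3 (2 higher, 1 lower). Trend and robust eBayes gave 3 for BRD and 1 for ATPdead against GFP and 1 for ATPdead against WT under S2sh7, and 2, 1 and 1 for WT, BRD and ATPdead against GFP with shLuc. Fitting only the arrays compared gave 6 and 11 for the BRD and ATPdead knockdowns in H1299, and 0 for the WT difference and for WT and BRD against GFP under S2sh7. The cause of these shifts was not tested, beyond the fewer arrays of the last fit. The alternative added after seeing the data takes the difference between kinds of line out of the error. It gave 28 for the 4 A549 pairs, without a share of all genes to set beside it.

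Leaving out 1 array gave 14 to 17 members called for the WT, 12 to 16 for the BRD, 13 to 20 for the ATPdead and 10 to 14 for the GFP knockdown in H1299, 28 to 29 for their mean and 1 to 2 for the WT difference. Under S2sh7 it gave 1 to 2 for BRD and 0 to 1 for ATPdead against GFP, and with shLuc 0 to 1 for WT against GFP. In A549 it gave 3 to 8 with WT or BRD, 27 to 34 with ATPdead or GFP, 16 to 27 for the difference, 27 to 34 under S2sh7 and, leaving out pairs, 0 to 2 for the 4 pairs. Replicate numbers did not pair the samples: in 12 same-numbered S2sh7 and shLuc pairs the correlation of deviations ran from -0.19 to 0.10, with 0 over 0.1. With a replicate block the H1299 counts were 15, 14, 16 and 12 for WT, BRD, ATPdead and GFP and 28 for the mean, and no other count changed. In A549 each group has 1 array, so its calls rest on the assumption that arrays with different cDNAs vary as replicates would. Among genes outside the set, dim probe sets near log2 5 could hide a change, whereas the lowest log2 of any member was 6.81.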

Other observations

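In H1299 the other cell cycle lists are read against a mean knockdown fit that called 50.0% of all genes, 27.1% higher and 22.9% lower. Of 25 mitosis genes 14 rose and 2 fell in the mean of the 4 knockdowns, led by the kinesin KIF20A (0.22 log2, adjusted p = 3.81e-10 in limma). Of 27 other replication genes 13 rose and 4 fell. DSCC1, of an alternative clamp loader, had the largest rise among them (0.54, adjusted p = 6.14e-16), which exceeded that of MCM6, and TIPIN, a fork protection factor, fell by 0.25. Of 13 genes of the E2F and RB families 8 rose and 4 fell: E2F2 and RBL2 rose by 0.31 and 0.25, and E2F7 fell by 0.53 (adjusted p = 8.34e-13). Of 19 other nucleotide synthesis genes 9 rose and 5 fell, with ATIC and the salvage kinase DCK up by 0.25 each and SHMT2 down by 0.24. Of 9 replication checkpoint genes 4 rose and 1 fell, and the mitotic entry kinase WEE1 rose by 0.20.

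CDC20, the activator of the anaphase-promoting complex, stood apart from the other 24 mitosis genes in A549. It rose by 0.87 with WT or BRD and by 1.18 with ATPdead or GFP (adjusted p = 0.00408 and 1.92e-04), where 18 of the 24 fell with ATPdead or GFP. E2F7 fell in every kind of line, by 0.54 with WT or BRD, by 0.96 with ATPdead or GFP and by 0.53 in H1299.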
